A study of Mus musculus with 48 samples.

Results

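The comparison described here is limb bud mesoderm of mouse embryos 12 h after their dams were injected with cadmium sulfate, against mesoderm of embryos whose dams were injected with phosphate-buffered saline (PBS), the solvent of the cadmium. Samples were chosen by their labels, 3 cadmium arrays and 3 PBS arrays of the 48 arrays in the series, with no use of measured values. All 10855 of 12488 probe sets that name 1 gene were kept and averaged to 8252 genes. Dams were injected intraperitoneally on gestation day 9.5, cadmium sulfate at 4 mg/kg, and trypsin was used to part mesoderm from ectoderm in buds of the right forelimb. The other groups used below are ectoderm of the same 2 treatments at 12 h, mesoderm of the same 2 treatments at 3 h, and mesoderm 12 h after acetazolamide at 400 mg/kg or after vegetable oil, its vehicle. The treatment protocol says that tissue of several litters was pooled for each RNA, the sample description calls the extracts non-pooled, and the mouse strain is not given in the sources used here. Whether the 3 arrays of a group came from separate pools is not stated. The p-values therefore rest only on spread between arrays, which was estimated from all 48 arrays of the series.

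The deposited values are ratios, each to the vehicle arrays matched in tissue and time, and they are given here as log2. PBS arrays 1 and 2 were divided by their own mean and PBS array 3 by itself, so PBS array 3 is 0 for every gene and carries no measurement of its own. Cadmium arrays are inferred to share these denominators. A value that stands out in cadmium array 3 therefore cannot be told apart from an opposite shift in PBS array 3. No expression level is held in such ratios, so the tissue could not be checked against its markers, and how far a gene stood above background is unknown. Array medians of the log2 ratio lay between -0.018 and 0.052 in cadmium and within 0.007 of 0 in PBS. The number of arrays limits the precision, and the median gene had a 95% interval of 0.21 to either side of its log2 difference.

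Metallothioneins are small cysteine-rich proteins that bind zinc, copper and cadmium. Metal-response elements in their promoters bind the zinc-sensing factor MTF1, and exposure to cadmium or excess zinc is known to raise their transcription. The factor p53 is stabilised after DNA damage and other stresses and activates genes that stop the cell cycle, repair DNA or start apoptosis. Cadmium given to pregnant mice at this stage of limb budding is known to cause loss of posterior forelimb elements, and acetazolamide, an inhibitor of carbonic anhydrase, is known to cause a similar defect.

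At 12 h after cadmium, mesoderm held more RNA of several p53 target genes. It held less RNA of the classical metallothionein gene Mt2 and of single genes such as Uqcc3, Ogt and Nek7. The phosphofructokinase genes Pfkl and Pfkp also rose, but their calls ended in 8 and 11 of 19 alternatives. The other classical metallothionein gene, Mt1, fell, and its call ended in 4 of the 19. In limma, 188 of 8252 genes passed an adjusted p of 0.05 (2.28%), of which 87 rose (1.05%) and 101 fell (1.22%). A further look at unadjusted values gave 1142 genes under 0.05. Most changes were small: the median size on the log2 scale was 0.53 among genes that rose and 0.56 among those that fell, and 4 rose and 5 fell by at least 1. The median over all genes was 0.01, with 54.4% above 0. In 184 of the 188 genes the cadmium and PBS arrays did not overlap. Over all genes this share was 19.3% (9.80% with cadmium above PBS and 9.51% with cadmium below). The 188 genes were called on these same arrays, so their separation follows largely from the calling and is no separate evidence for them. The same holds wherever the arrays of a called gene are said below to stand apart. The PBS array divided by itself is 0 by construction and adds no vehicle measurement to such a comparison. Of the 188, 47 were measured by several probe sets, and in 45 of these all probe sets lay on 1 side of 0. The genes were called on the mean of these probe sets, so this agreement follows in part from the calling and is no separate evidence. Probe sets close to 0 count here too, such as 1 of Col18a1 at 0.001.

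The calls rested on the spread estimated from all 48 arrays and on a precision weight for each comparison. Fitted on the 6 arrays alone, limma called 0 genes (989 at an unadjusted p under 0.05), and without weights it called 22. When single arrays were left out, 45 of the 188 genes passed in every fit, 21 of them higher and 24 lower. The count was 58 without array 3 of either group, which gives the same fit, 99 without cadmium array 2 and 361 without cadmium array 1. Of the 45, 21 genes also passed without weights: Ccng1, Cdkn1a, Phlda3, Dpysl4, Zmat3, Gja4, Prrg2, Tnfaip8l1 and Gsn rose, and Mt2, Uqcc3, Ogt, Nek7, Mrps2, Zfp105, Taf1b, Zfp239, Znrd1, Dusp12, Hus1 and R3hcc1 fell.

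**Figure D1:**
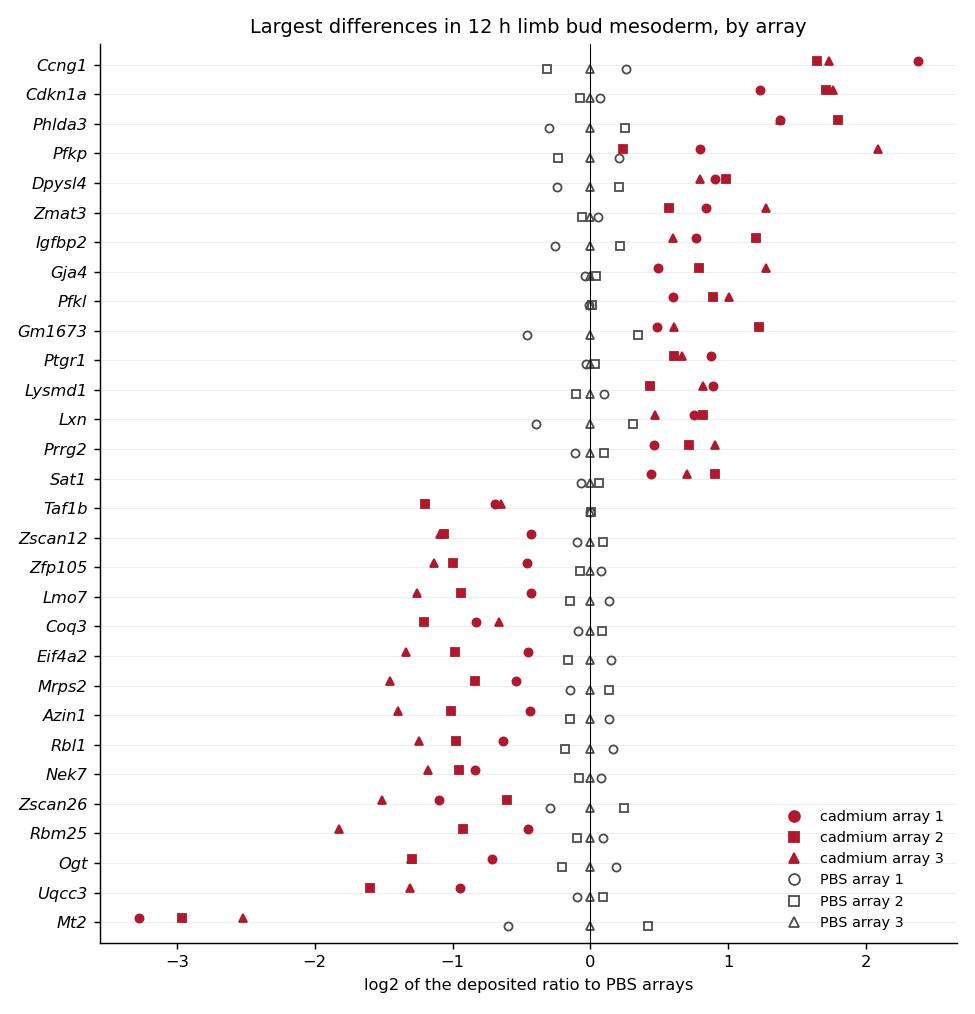
Log2 of the deposited ratio (horizontal axis) for the 15 genes with the largest increase and the 15 with the largest decrease past the threshold, with red symbols for the 3 cadmium arrays and open symbols for the 3 PBS arrays of 12 h mesoderm. In all 30 genes the cadmium arrays lie beyond the PBS arrays, as the rule for naming genes required, and cadmium array 3 stands apart for Pfkp and Rbm25.

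The highest increases were in p53 target genes. Ccng1 encodes cyclin G1, a p53 target that takes part in feedback on p53. Its log2 ratios were 2.38, 1.64 and 1.73 in cadmium mesoderm, against 0.26, -0.31 and 0 in PBS mesoderm. Every cadmium array lay far above every PBS array, and the difference was 1.94 ± 0.27 (SE; adjusted p = 6.53e-05), 3.83-fold. Cdkn1a encodes p21, the inhibitor of cyclin-dependent kinases through which p53 stops the cell cycle. Its values were 1.23, 1.71 and 1.76 in cadmium mesoderm, against 0.07, -0.07 and 0 in PBS mesoderm. The groups did not overlap, and the difference was 1.57 ± 0.20 (adjusted p = 4.89e-05), 2.96-fold. The 2 probe sets of Cdkn1a differed in size, with differences of 2.58 and 0.55, of which the second did not pass the threshold alone (adjusted p = 0.23).

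Phlda3 encodes a protein that keeps Akt away from the membrane. It stood at 1.38, 1.80 and 1.38 in cadmium mesoderm, against -0.30, 0.25 and 0 in PBS mesoderm, a difference of 1.53 ± 0.20 (adjusted p = 5.03e-05). Zmat3, an RNA-binding zinc finger protein of the p53 pathway, stood at 0.84, 0.57 and 1.27 in cadmium mesoderm, against 0.06, -0.06 and 0 in PBS mesoderm. Its groups did not overlap either, although the cadmium arrays were more spread than for Phlda3, and the difference was 0.90 ± 0.12 (adjusted p = 5.65e-05). Ercc5, a nuclease of nucleotide excision repair, rose by 0.27 ± 0.07 (adjusted p = 0.0437). Its cadmium array 1, at 0.10, was barely above PBS array 1, at 0.09, and its 2 probe sets disagreed, with differences of 0.52 and 0.01. The call of Ercc5 ended without PBS array 2 (0.22, adjusted p = 0.143), without cadmium array 2 (0.21, adjusted p = 0.243) and without array 3 of either group (0.22, adjusted p = 0.321).

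The p53 list holds 17 measured genes, of which 5 rose and 0 fell (29.4% of the list, against 2.28% of all genes called). Their median difference was 0.32, against 0.01 over all genes, and 16 of the 17 lay above 0. Among those that did not pass, Plk2, a polo-like kinase, had a difference of 0.48 ± 0.20, Gtse1, which binds p53 in G2, 0.43 ± 0.14, and the antiproliferative gene Btg2 0.26 ± 0.08. The cadmium arrays of these 3 genes lay above the PBS arrays, by a small margin for Plk2 and Gtse1. The apoptosome gene Apaf1 had 0.36 ± 0.21 and Gadd45a, a stress-induced growth arrest gene, 0.32 ± 0.22, and in both the groups overlapped. Mdm2, which encodes the ligase that degrades p53, stood at 0.01, 0.10 and 0.02 in cadmium mesoderm, against -0.05, 0.05 and 0 in PBS mesoderm. Its difference was 0.04 ± 0.12, and Sesn1, a regulator of growth signalling, lay at -0.20. Of 25 genes of the Bcl2 family, caspases and their inhibitors, 0 passed, with a median of 0.02 and a range of -0.42 to 0.36.

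The promoters of the 2 p53 targets with the largest increase are shown because both hold a p53 half-site. Sequences are the RefSeq promoter windows of build GRCm38.p6, from 250 bases before the gene start to 50 after it. Capitals mark matches to the p53 consensus decamer, searched on both strands.
Ccng1, chr11:40755237-40755536, minus strand: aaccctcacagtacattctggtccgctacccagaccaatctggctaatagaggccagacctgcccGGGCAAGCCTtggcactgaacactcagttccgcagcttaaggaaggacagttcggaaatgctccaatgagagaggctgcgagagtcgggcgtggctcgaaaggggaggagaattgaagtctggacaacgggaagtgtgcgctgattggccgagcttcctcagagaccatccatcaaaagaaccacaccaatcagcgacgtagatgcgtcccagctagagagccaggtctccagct
Cdkn1a, chr17:29090729-29091028, plus strand: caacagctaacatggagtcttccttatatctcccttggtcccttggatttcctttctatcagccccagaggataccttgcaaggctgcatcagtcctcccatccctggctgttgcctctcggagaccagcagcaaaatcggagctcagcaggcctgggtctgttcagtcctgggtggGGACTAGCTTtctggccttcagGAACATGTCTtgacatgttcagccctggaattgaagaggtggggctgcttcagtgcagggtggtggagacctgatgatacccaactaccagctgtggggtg
The Ccng1 window held 1 match, 185 bases before the start of its transcript, which lies 23 bases inside the annotated gene. The Cdkn1a window shown held 2, at 73 and 51 bases before the start of the annotated gene. A second Cdkn1a window, chr17:29093519-29093818, held 0 matches and is not shown. Its transcript starts 2790 bases inside the annotated gene, so the 2 matches lie far from that start. Among all 32851 promoters 8.36% held at least 1 match and 0.359% at least 2. Of 91 promoters of genes that rose, 4.40% held a match, as did 1.83% of 109 promoters of genes that fell. Both shares were below that over all promoters, and the differences between these shares were not tested. No match lay in the window of Phlda3. In all, 156 of the 188 called genes had an entry, with 200 promoters.

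The largest decrease of any called gene was that of Mt2. It encodes metallothionein 2, and its log2 ratios were -3.27, -2.96 and -2.52 in cadmium mesoderm, against -0.60, 0.42 and 0 in PBS mesoderm. All cadmium arrays lay far below all PBS arrays, and the difference was -2.86 ± 0.21 (adjusted p = 6.71e-10), 7.25-fold lower. Mt1, which encodes metallothionein 1, had ratios of -0.93, -0.94 and -0.45 in cadmium mesoderm, against -0.24, 0.20 and 0 in PBS mesoderm. Its groups did not overlap, with cadmium array 3 the nearest to PBS, and it fell by 0.76 ± 0.14 (adjusted p = 0.00205), 1.70-fold. Mt1 kept its call in every fit without 1 array but not without weights (adjusted p = 0.121).

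Slc30a1 encodes the zinc exporter of the plasma membrane, which is induced through the same metal-response elements. It stood at -0.15, -0.31 and -0.19 in cadmium mesoderm, against 0.01, -0.01 and 0 in PBS mesoderm. The groups did not overlap, yet the difference of -0.22 ± 0.06 did not pass (adjusted p = 0.0715). Mtf1, the gene of the zinc-sensing factor itself, had a difference of 0.03 ± 0.09. The other metallothioneins, Mt3 and Mt4, had 0.02 and 0.14. Of 17 measured genes of metallothionein, zinc and iron transport, 0 rose and 2 fell (11.8% of the list, against 2.28% of all genes called). The list's median of 0.03 changed sign in 4 of 19 alternatives. The remaining members ran from -0.30 for the zinc importer Slc39a6 to 0.32 for Slc39a7, which releases zinc from the endoplasmic reticulum.

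The promoters of both metallothionein genes are shown because metal-response elements are the sequences through which metals are known to act on them. Capitals mark the core of the element, TGCACNC or TGCGCNC, on either strand.
Mt2, chr8:94172368-94172667, plus strand: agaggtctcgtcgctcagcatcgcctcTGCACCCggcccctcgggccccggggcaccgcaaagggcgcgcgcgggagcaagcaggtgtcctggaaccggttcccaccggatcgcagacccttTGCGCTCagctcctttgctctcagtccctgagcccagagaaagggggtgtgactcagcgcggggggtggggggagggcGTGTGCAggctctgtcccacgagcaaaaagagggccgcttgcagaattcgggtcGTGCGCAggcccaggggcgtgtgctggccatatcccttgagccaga
Mt1, chr8:94178839-94179138, plus strand: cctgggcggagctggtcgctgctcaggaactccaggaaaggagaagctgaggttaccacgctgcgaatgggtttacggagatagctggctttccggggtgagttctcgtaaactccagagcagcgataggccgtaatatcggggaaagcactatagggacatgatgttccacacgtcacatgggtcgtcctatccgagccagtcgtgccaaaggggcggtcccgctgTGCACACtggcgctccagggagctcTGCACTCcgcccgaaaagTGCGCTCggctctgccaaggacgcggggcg
Mt2 held 4 matches, at 223, 128 and 50 bases before the annotated start and 1 after it, and Mt1 held 3, of which 1 lay 23 bases before the start of its window's transcript and 2 after it. That start, 94179089, lies 206 bases inside the annotated Mt1 gene, so the Mt1 window does not cover the sequence before the gene's outermost start. Among all promoters 25.7% held at least 1 match, 1.97% at least 3 and 0.517% at least 4. A match was found in 29.7% of promoters of genes that rose and in 32.1% of those of genes that fell. The genes lie next to each other on chromosome 8, from 94172618 to 94173567 for Mt2 and from 94178883 to 94180327 for Mt1 (GRCm38).

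**Figure D2:**
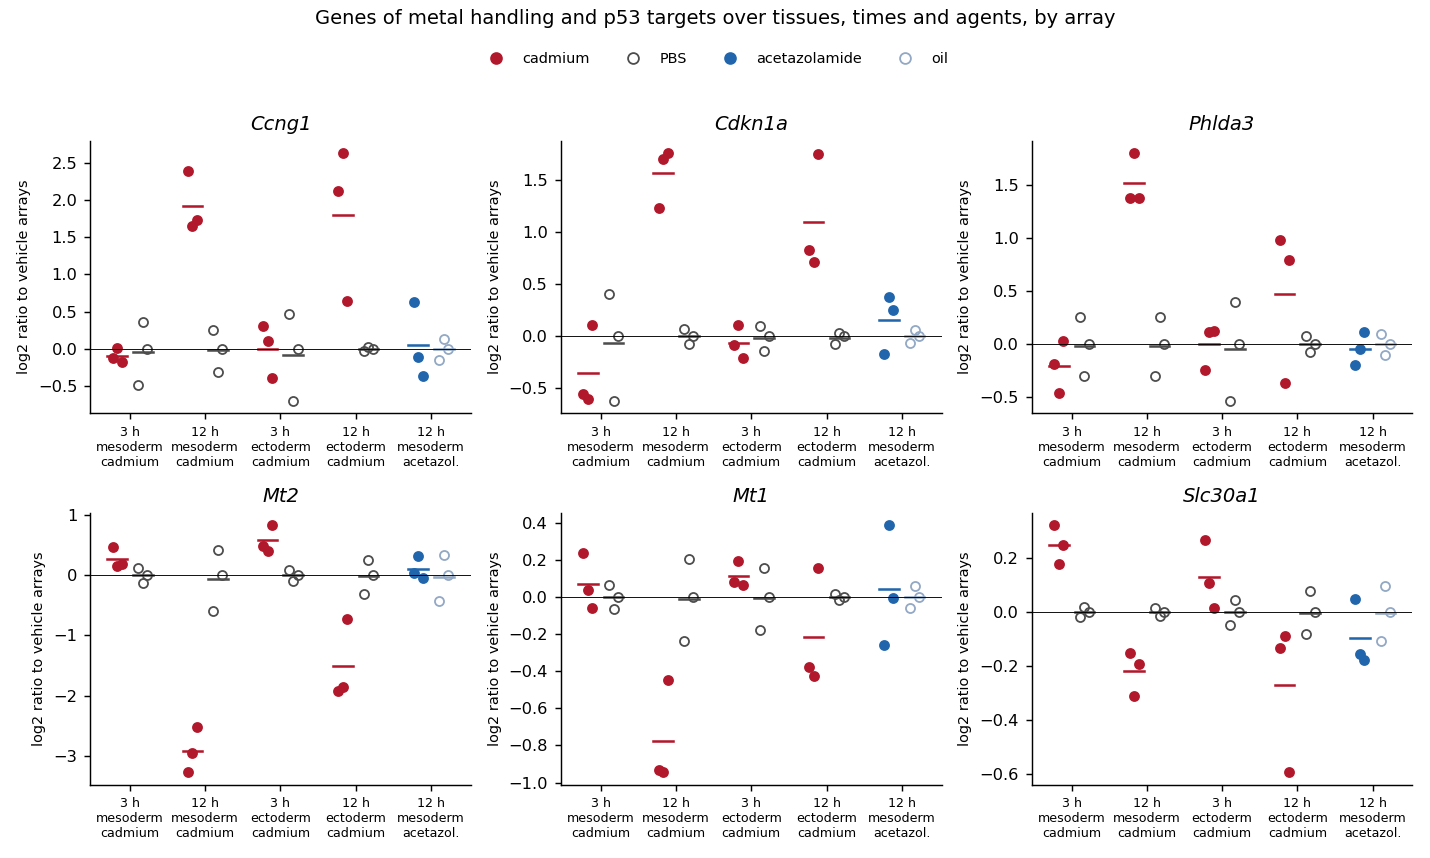
Log2 ratio to vehicle arrays (vertical axes) for 3 p53 targets and 3 metal genes, with each point 1 array, filled for cadmium (red) or acetazolamide (blue) and open for its vehicle, and a bar at each group's mean. In 12 h mesoderm Ccng1, Cdkn1a and Phlda3 lie above PBS and Mt2, Mt1 and Slc30a1 below it, while at 3 h the Slc30a1 points of cadmium mesoderm lie above PBS.

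Genes of the cell cycle moved in few cases. Ccnd1 encodes cyclin D1, which drives entry into S phase, and its values were -0.36, -0.33 and -0.34 in cadmium mesoderm, against -0.05, 0.04 and 0 in PBS mesoderm. The 3 cadmium arrays lay close together and clear of PBS, and Ccnd1 fell by 0.34 ± 0.06 (adjusted p = 0.00134), although its 2 probe sets gave -0.55 and -0.13 and the call ended without weights (adjusted p = 0.121). Rbl1, the pocket protein p107, fell by 0.94 ± 0.25 (adjusted p = 0.0365). Its values of -0.64, -0.97 and -1.24 in cadmium mesoderm did not overlap those of 0.16, -0.18 and 0 in PBS mesoderm. The call of Rbl1 ended without PBS array 1 (adjusted p = 0.0813), without cadmium array 2 (adjusted p = 0.135) and without array 3 of either group (-0.79, adjusted p = 0.27). Nek7, a kinase of the mitotic spindle and of inflammasome assembly, had -0.84, -0.95 and -1.17 in cadmium mesoderm, against 0.08, -0.08 and 0 in PBS mesoderm. It fell by 0.99 ± 0.13 (adjusted p = 6.02e-05), and its groups stood well apart.

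Of 22 G1 cyclins, kinases and inhibitors, 0 rose and 2 fell (9.09% of the list, against 2.28% of all genes called), with a median of -0.09. Cyclin D2 (Ccnd2) had -0.50 ± 0.42, cyclin E1 (Ccne1) -0.09 ± 0.12 and the inhibitor p27 (Cdkn1b) -0.10 ± 0.07. None of 27 mitosis genes passed, but 20 of them lay below 0, with a median of -0.10. The lowest was Ect2, a factor of cytokinesis, at -0.63 ± 0.24 (adjusted p = 0.195), and Plk1 and Cdc20 had 0.12 ± 0.10 and 0.05 ± 0.10. Of 37 DNA replication genes 0 passed, with Pcna, the sliding clamp, at -0.04 ± 0.11 and the helicase gene Mcm2 at -0.20 ± 0.12. Of 28 DNA repair genes 0 passed, with a median of 0.05. Hus1, a clamp of the DNA damage checkpoint outside these lists, fell by 0.64 ± 0.09, with probe sets at -1.35, -0.24 and -0.34. It was chosen after its values were seen, because it passed in every fit without 1 array and without weights, as did the phosphatase gene Dusp12 (-0.77 ± 0.11).

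In energy metabolism, 2 of 28 genes of hypoxia and glycolysis rose (7.14% of the list, against 2.28% of all genes called) and 0 fell. Both encode phosphofructokinase, which catalyses the committed step of glycolysis. Pfkl, the liver form, had 0.60, 0.89 and 1.01 in cadmium mesoderm, against -0.01, 0.01 and 0 in PBS mesoderm, and rose by 0.83 ± 0.18 (adjusted p = 0.0104). Pfkp, the platelet form, had 0.80, 0.24 and 2.09 in cadmium mesoderm, against 0.20, -0.24 and 0 in PBS mesoderm. Cadmium array 2 was barely above PBS array 1 and cadmium array 3 far above the rest, and the difference was 1.05 ± 0.28 (adjusted p = 0.0405). Without array 3 of either group it was 0.53 (adjusted p = 0.544), and the call also ended without PBS array 2 (adjusted p = 0.0774) and without cadmium array 1 (adjusted p = 0.0528). The call of Pfkl ended without array 3 of either group (0.74, adjusted p = 0.122) and without cadmium array 2 (adjusted p = 0.0576). The list's median was 0.15 and 22 of its members lay above 0. Its mean over genes was 0.08, 0.02 and 0.44 in cadmium arrays 1 to 3, against 0.07, -0.08 and 0 in PBS arrays. Only the ratio of cadmium array 3 stood clear. A high cadmium array 3 cannot be told apart here from a low PBS array 3. The median was 0.07 without array 3 of either group. Hif1a, the oxygen-regulated factor that drives many of these genes, lay the other way, at -0.66 ± 0.19 (adjusted p = 0.062), and Vegfa and Ldha had 0.11 ± 0.12 and 0.14 ± 0.08.

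Among single genes of mitochondrial function, Uqcc3, which helps to assemble complex III of the respiratory chain, had -0.95, -1.60 and -1.31 in cadmium mesoderm, against -0.10, 0.09 and 0 in PBS mesoderm, and fell by 1.29 ± 0.19 (adjusted p = 0.000122), 2.44-fold. Uqcrc2, a core subunit of the same complex, had -0.66, -0.61 and -0.88 in cadmium mesoderm, against -0.11, 0.10 and 0 in PBS mesoderm. The groups of both genes stood clear of each other, and Uqcrc2 fell by 0.71 ± 0.14 (adjusted p = 0.00543), a call that ended without array 3 of either group (-0.63, adjusted p = 0.0943). Coq3, a methyltransferase of ubiquinone synthesis, had -0.83, -1.20 and -0.66 in cadmium mesoderm, against -0.09, 0.08 and 0 in PBS mesoderm. It fell by 0.90 ± 0.18 (adjusted p = 0.00581), with no overlap, and its call ended without cadmium array 2 (adjusted p = 0.0567). Of 68 measured subunits of the respiratory chain only Uqcrc2 fell (1.47% of the list, against 2.28% of all genes called), 0 rose, and 54 lay above 0, with a list median of 0.10. Uqcc3 and Coq3 are not in that list. Uqcrc1, the second core subunit, had 0.19 ± 0.20 and Cox4i1, of complex IV, 0.16 ± 0.09.

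Among 61 genes of the mitochondrial ribosome, Mrps2 and Mrps31 fell (3.28% of the list, near the 2.28% of all genes called) and 0 rose. The list median of -0.02 changed sign in 2 of 19 alternatives. Mrps2 had -0.54, -0.84 and -1.45 in cadmium mesoderm, against -0.15, 0.13 and 0 in PBS mesoderm, and fell by 0.94 ± 0.15 (adjusted p = 0.000355). Mrps31 had -0.84, -0.44 and -0.66 in cadmium mesoderm, against -0.09, 0.09 and 0 in PBS mesoderm, and fell by 0.65 ± 0.15 (adjusted p = 0.0158). Neither gene's groups overlapped, and the call of Mrps31 ended without PBS array 2 (adjusted p = 0.0597) and without array 3 of either group (adjusted p = 0.101). Of 35 genes of the cytosolic ribosome 0 passed, and 27 lay above 0 with a median of 0.06.

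Of 64 translation factors and tRNA synthetases 3 fell (4.69% of the list, against 2.28% of all genes called) and 0 rose, with 43 below 0. Eif4a2, a helicase of the cap-binding complex, had -0.46, -0.98 and -1.34 in cadmium mesoderm, against 0.15, -0.16 and 0 in PBS mesoderm, and fell by 0.92 ± 0.18 (adjusted p = 0.0034). Eif3j1, of initiation factor 3, fell by 0.60 ± 0.14, and Eif4e, the cap-binding protein, by 0.39 ± 0.10, with 1 of its 2 probe sets at only -0.13. Of 75 splicing factors and RNA-binding genes, 2 fell (2.67% of the list, near the share over all genes), 0 rose and 51 lay below 0, with a median of -0.08. Rbm25, a splicing factor, had -0.45, -0.92 and -1.83 in cadmium mesoderm, against 0.09, -0.10 and 0 in PBS mesoderm. Its cadmium array 3 was about as far from array 2 as array 2 was from PBS, and the difference was -1.06 ± 0.23 (adjusted p = 0.00894). Hnrnpk, which binds nascent RNA and is a p53 cofactor, fell by 0.70 ± 0.19 (adjusted p = 0.049), and Srsf3 had -0.28 ± 0.18. Without array 3 of either group the calls of Rbm25 (-0.68, adjusted p = 0.267), Eif4a2 (-0.71, adjusted p = 0.119), Eif4e (-0.39, adjusted p = 0.155) and Hnrnpk (-0.52, adjusted p = 0.399) ended. The calls of Eif3j1, Eif4e and Hnrnpk also ended without PBS array 1 (adjusted p of 0.0571, 0.0795 and 0.134) and without cadmium array 2 (adjusted p of 0.102, 0.206 and 0.179), and that of Eif4e without PBS array 2 (adjusted p = 0.0612).

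Ogt, the enzyme that adds N-acetylglucosamine to nuclear and cytosolic proteins, had -0.72, -1.30 and -1.30 in cadmium mesoderm, against 0.18, -0.21 and 0 in PBS mesoderm. Its groups stood apart and it fell by 1.10 ± 0.18 (adjusted p = 0.00061). Taf1b, a subunit of the selectivity factor of RNA polymerase I, which transcribes ribosomal RNA, had -0.69, -1.20 and -0.65 in cadmium mesoderm, against 0 in each PBS array to 2 decimals, and fell by 0.85 ± 0.14 (adjusted p = 0.00039). Other genes of this machinery were looked up after their values had been seen: Znrd1, a subunit of the same polymerase, fell by 0.78 ± 0.13, Polr1b, its second largest subunit, by 0.34 ± 0.07, and its activator Ubtf by 0.41 ± 0.11. The cadmium arrays of Znrd1 and Polr1b lay below their PBS arrays, while cadmium array 1 of Ubtf lay level with PBS array 2. Without cadmium array 2 the calls of Polr1b and Ubtf ended, and that of Ubtf ended without PBS array 1 and without array 3 of either group as well. No list of this machinery was drawn up, so members that rose or did not move were not counted. A shift of the machinery as a whole was not tested.

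Of 112 zinc finger genes 1 rose and 5 fell (5.36% of the list, against 2.28% of all genes called). In all, 71 lay below 0, with a median of -0.06. Zscan26 had -1.10, -0.61 and -1.51 in cadmium mesoderm, against -0.29, 0.24 and 0 in PBS mesoderm, and fell by 1.06 ± 0.19 (adjusted p = 0.00129). Zfp105 and Zfp239 fell by 0.86 ± 0.13 and 0.79 ± 0.11, and both passed in every fit without 1 array. Zscan12 fell by 0.86 ± 0.23, Zfp35 by 0.71 ± 0.11, and Zfp653 rose by 0.42 ± 0.12. The calls of Zscan26 (-0.83, adjusted p = 0.072), Zscan12 (-0.74, adjusted p = 0.267) and Zfp653 (0.49, adjusted p = 0.106) ended without array 3 of either group. Those of Zscan12 and Zfp653 ended without cadmium array 2 as well (adjusted p of 0.21 and 0.272), that of Zscan12 without PBS array 2 (adjusted p = 0.0901) and that of Zfp653 without PBS array 1 (adjusted p = 0.239). Of 8 histone genes 0 passed and all lay above 0, with a median of 0.17 that turned negative in 3 of 19 alternatives.

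Genes of the stress responses that cadmium is known to start in other cells were mostly near 0. Hmox1, the haem oxygenase that cadmium induces in many cell types, stood at -0.02, 0.37 and 0.10 in cadmium mesoderm, against 0.05, -0.06 and 0 in PBS mesoderm. These values overlapped, and the difference was 0.15 ± 0.11. Among 30 genes of oxidative stress and glutathione, 2 rose and 1 fell (10% of the list, against 2.28% of all genes called), with a median of 0.06. Gclc, the catalytic subunit that makes the first intermediate of glutathione, had -0.41, -0.38 and -0.25 in cadmium mesoderm, against 0.04, -0.04 and 0 in PBS mesoderm. It fell by 0.35 ± 0.08 (adjusted p = 0.0107) in every fit without 1 array, but not without weights (adjusted p = 0.416). Its partner subunit Gclm had -0.35 ± 0.16 (adjusted p = 0.298). Gsta4, a glutathione transferase for lipid aldehydes, rose by 0.60 ± 0.16 and Gpx3, the secreted glutathione peroxidase, by 0.45 ± 0.12. Both calls ended without PBS array 1 (adjusted p of 0.213 and 0.148), without cadmium array 2 (adjusted p of 0.243 and 0.159) and without array 3 of either group (adjusted p of 0.0766 and 0.128). Nqo1 and Txnrd1, 2 further targets of the NRF2 pathway, had 0.02 ± 0.07 and -0.20 ± 0.21.

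Of 21 heat shock and chaperone genes 2 fell (9.52% of the list, against 2.28% of all genes called) and 0 rose, with a median of -0.11. Dnajb2 fell by 0.63 ± 0.16 (adjusted p = 0.0265) and the mitochondrial chaperonin Hspd1 by 0.24 ± 0.07 (adjusted p = 0.0458). Both calls ended without array 3 of either group (adjusted p of 0.267 and 0.237) and without cadmium array 2 (adjusted p of 0.159 and 0.0983), and that of Hspd1 also without PBS array 1 (adjusted p = 0.152) or cadmium array 1 (adjusted p = 0.0556). The inducible HSP70 genes Hspa1a and Hspa1b, near-identical copies whose signals may not be separable, had -0.07 ± 0.21 and -0.11 ± 0.35. Of 28 genes of the unfolded protein and amino acid stress responses, 1 fell (3.57% of the list, against 2.28% of all genes called) and 0 rose. Atf6, a sensor of the endoplasmic reticulum, fell by 0.36 ± 0.07 (adjusted p = 0.00655). That call ended without array 3 of either group (adjusted p = 0.0998) and without cadmium array 2 (adjusted p = 0.0563). The highest value of the list was that of Ddit4, an inhibitor of mTOR signalling that p53 and glucocorticoids also induce, at 0.83, 0.96 and 0.82 in cadmium mesoderm, against 0.48, -0.73 and 0 in PBS mesoderm. The groups did not overlap, but PBS arrays 1 and 2 lay far apart, and the difference of 0.95 ± 0.33 did not pass (adjusted p = 0.137). Ddit3, which encodes CHOP, had 0.42 ± 0.12 (adjusted p = 0.0648), Hspa5 -0.27 ± 0.13 and Trib3 0.28 ± 0.14.

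Of 20 glucocorticoid-responsive genes 3 fell (15% of the list, against 2.28% of all genes called), both metallothioneins and Fkbp5, and 0 rose. Fkbp5, a chaperone of the glucocorticoid receptor, fell by 0.40 ± 0.10 (adjusted p = 0.0365), and its call ended without PBS array 1 (adjusted p = 0.0692), without cadmium array 2 (adjusted p = 0.173) and without array 3 of either group (-0.35, adjusted p = 0.262). Other members did not move with it: Tsc22d3 had 0.02 ± 0.12 and Per1 -0.11 ± 0.13. Of 23 immediate early genes 0 passed, and Fos, Jun and Egr1 had 0.18 ± 0.13, -0.02 ± 0.07 and 0.08 ± 0.07.

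None of the genes that pattern the limb axes passed, apart from 1 in the Wnt list and 1 in the Notch and ephrin list. Shh, the signal of the posterior limb margin, stood at -0.05, 0.02 and 0.16 in cadmium mesoderm, against 0.02, -0.02 and 0 in PBS mesoderm, which overlapped. Its targets Ptch1 and Gli1 had -0.17 ± 0.14 and -0.18 ± 0.13, and the posterior factor Hand2 -0.10 ± 0.11. The 11 measured genes of the pathway had a median of -0.10 and ran from -0.18 to 0.08. The 18 genes of the FGF pathway ran from -0.13 to 0.16, with Fgf10, the mesodermal signal that starts outgrowth, at 0.00 ± 0.07. Since expression levels are unknown, a value near 0 does not tell an unchanged gene from one too dim to measure.

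Of 31 Hox genes 0 passed, and they ran from -0.31 for Hoxa10 to 0.39 for Hoxd9. Hoxd11, Hoxd12 and Hoxd13, which act in the posterior and distal limb, had 0.04 ± 0.17, 0.06 ± 0.08 and 0.14 ± 0.09. Of 24 limb axis transcription factors 0 passed, with a median of -0.05 that changed sign in 2 of 19 alternatives. The lowest was Meox2, a homeobox gene counted below among the limb mesenchyme markers too, at -0.54 ± 0.24 (adjusted p = 0.31). In the Wnt list of 38, 1 gene passed (2.63% of the list, near the 2.28% of all genes called). Dvl1, which relays the signal from the receptor, rose by 0.49 ± 0.13 (adjusted p = 0.0476). Its cadmium arrays, at 0.50, 0.48 and 0.48, lay close together, and its call ended in 5 of 6 fits without 1 array (adjusted p of 0.06 to 0.185), all but that without PBS array 2. In the Notch and ephrin list of 24, 1 gene passed as well (4.17% of the list, against 2.28% of all genes called). The ephrin ligand gene Efna1 rose by 0.47 ± 0.12 (adjusted p = 0.0365). This call ended without array 3 of either group (0.35, adjusted p = 0.357), without PBS array 1 (adjusted p = 0.101) and without cadmium array 2 (adjusted p = 0.0746). None of 36 BMP and TGF-beta genes, 18 retinoic acid genes and 16 cartilage genes passed, and the highest among them was Crabp1, a retinoic acid binding protein, at 0.74 ± 0.24 (adjusted p = 0.116). Its values of 0.59, 0.90 and 0.70 in cadmium mesoderm did not overlap those of -0.15, 0.14 and 0 in PBS mesoderm. Among 88 genes of collagen and matrix, 1 passed (1.14% of the list, below the 2.28% of all genes called). Col18a1, the basement membrane collagen, rose by 0.48 ± 0.12 (adjusted p = 0.0225) with probe sets from 0.00 to 0.79. Its call ended without PBS array 1 (adjusted p = 0.124), without cadmium array 2 (adjusted p = 0.0912) and without array 3 of either group (adjusted p = 0.142).

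Of 37 proteasome subunits, 18 sterol synthesis genes, 14 cold-inducible and circadian genes and 15 genes of carbonic anhydrases and pH transport, 0 passed in each list. Their medians were -0.02, -0.10, -0.02 and -0.01, and those of the cold-inducible and the pH lists changed sign in 2 of 19 alternatives each. Car2, a cytosolic carbonic anhydrase, had -0.06 ± 0.14.

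**Figure D3:**
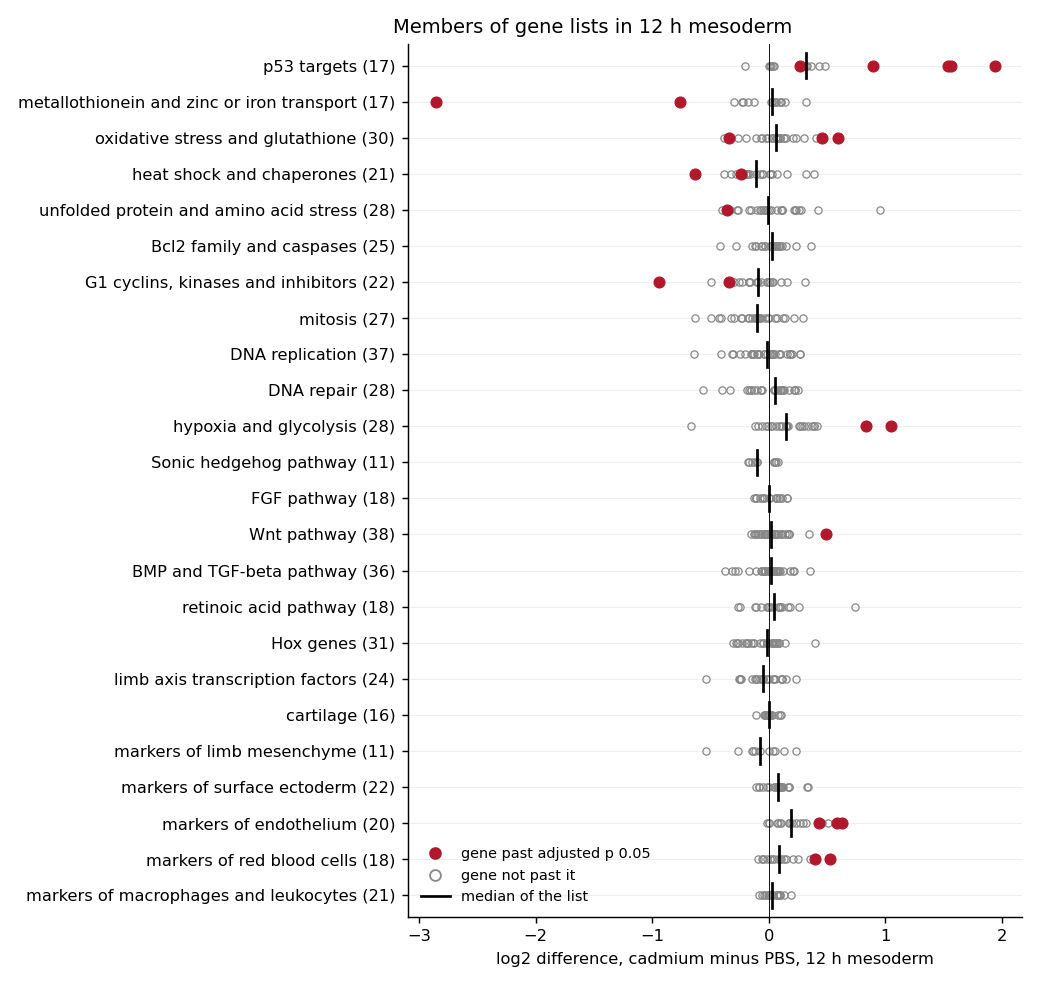
Log2 difference of cadmium minus PBS in 12 h mesoderm (horizontal axis) for every measured member of 24 gene lists, with the number of members in brackets, filled points for genes past the threshold and a bar at the list's median. The p53 list and the endothelium list lie mainly to the right of 0, 2 metallothioneins lie far to the left, and the limb signalling and Hox lists lie around 0.

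Markers of cells other than limb mesenchyme were measured in the same arrays. Bulk RNA cannot tell fewer cells of a type from less RNA per cell. Of 20 endothelial markers 3 rose (15% of the list, against 2.28% of all genes called) and 0 fell, 18 lay above 0, and the median was 0.19. Tie1, an endothelial receptor, had 0.40, 0.75 and 0.66 in cadmium mesoderm, against -0.28, 0.20 and 0 in PBS mesoderm, and rose by 0.63 ± 0.12 (adjusted p = 0.00187). Its groups stood apart, although in 1 of its 2 probe sets cadmium array 1 lay below PBS array 2. Eng, which encodes endoglin, rose by 0.58 ± 0.16 (adjusted p = 0.0425) and the endothelial factor Sox7 by 0.43 ± 0.10 (adjusted p = 0.022), calls that ended without array 3 of either group (0.48, adjusted p = 0.313 and 0.25, adjusted p = 0.404). That of Eng also ended without PBS array 1 (adjusted p = 0.129) and without cadmium array 2 (adjusted p = 0.0831), and that of Sox7 without PBS array 2 (adjusted p = 0.0539). The defining markers Cdh5, Pecam1 and Kdr had 0.46 ± 0.15, 0.07 ± 0.15 and 0.08 ± 0.14 and did not pass. The mean of the list was 0.11, 0.15 and 0.43 in cadmium arrays 1 to 3, against -0.11, 0.09 and 0 in PBS arrays, and its median was 0.09 without array 3 of either group. Gja4, an arterial gap junction gene that is not in the list, had 0.49, 0.79 and 1.27 in cadmium mesoderm, against -0.04, 0.04 and 0 in PBS mesoderm. It rose by 0.85 ± 0.12 (adjusted p = 6.26e-05), with no overlap, and was highest in cadmium array 3, as the list mean was. In 12 h cadmium ectoderm the list had 20 of 20 markers above 0 and a median of 0.16, where 57.6% of all genes lay above 0. The part of endothelial cells in these differences was not tested.

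Of 18 red blood cell markers 2 rose (11.1% of the list, against 2.28% of all genes called) and 0 fell. The haem synthesis gene Alas2 rose by 0.53 ± 0.12 and the factor Nfe2 by 0.40 ± 0.11. Cadmium array 1 of Nfe2 lay within its PBS arrays. The list mean was -0.02, 0.00 and 0.35 in cadmium arrays 1 to 3, against -0.10, 0.07 and 0 in PBS arrays. Again only the ratio of cadmium array 3 stood clear, which could also hold a low PBS array 3. Without array 3 of either group Alas2 had 0.31 (adjusted p = 0.38) and Nfe2 0.24 (adjusted p = 0.474), and the call of Nfe2 also ended without PBS array 1 (adjusted p = 0.145) and without cadmium array 2 (adjusted p = 0.122). The embryonic globin gene Hbb-bh1 had 0.08 ± 0.12. None of 21 leukocyte, 22 surface ectoderm, 14 muscle precursor, 15 neural, 11 limb mesenchyme and 4 sex-linked markers passed. Their medians were 0.03, 0.08, 0.04, -0.01, -0.07 and -0.02, and the last 4 of these changed sign in 2 to 5 of 19 alternatives. RNA quality, as the log2 ratio of 3' to 5' Gapdh probe sets, was -0.71, 0.11 and -0.10 in cadmium arrays 1 to 3, against -0.31, 0.37 and 0 in PBS arrays, and these overlapped. The part of these markers and of RNA quality in the other results was not tested.

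The remaining large differences fell outside the lists. Dpysl4, a p53-inducible member of a family that guides axons, had 0.90, 0.98 and 0.79 in cadmium mesoderm, against -0.24, 0.21 and 0 in PBS mesoderm, and rose by 0.91 ± 0.13 (adjusted p = 6.53e-05). Igfbp2, which binds insulin-like growth factors, had 0.77, 1.20 and 0.60 in cadmium mesoderm, against -0.25, 0.22 and 0 in PBS mesoderm. The groups of both genes stood apart, and Igfbp2 rose by 0.87 ± 0.20 (adjusted p = 0.0181), which ended without PBS array 1 (0.69, adjusted p = 0.0867) and without cadmium array 2 (0.70, adjusted p = 0.138). Prrg2, a membrane protein with a vitamin K-dependent domain, rose by 0.70 ± 0.10 and Lysmd1 by 0.71 ± 0.12, and both passed in every fit without 1 array. Lxn, which encodes the carboxypeptidase inhibitor latexin, rose by 0.71 ± 0.16, Ptgr1, which reduces prostaglandins and lipid aldehydes, by 0.71 ± 0.19 and Gm1673 by 0.81 ± 0.21. The call of Ptgr1 ended in all 6 fits without 1 array (adjusted p of 0.0569 to 0.135). Those of Lxn and Gm1673 ended without PBS array 1 (0.47, adjusted p = 0.0884 and 0.55, adjusted p = 0.213) and without cadmium array 2 (adjusted p of 0.0659 and 0.29), and that of Gm1673 without array 3 of either group (adjusted p = 0.106).

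Among polyamine genes, Sat1, which breaks polyamines down, had 0.44, 0.90 and 0.70 in cadmium mesoderm, against -0.07, 0.06 and 0 in PBS mesoderm, and rose by 0.68 ± 0.15 (adjusted p = 0.0127). Azin1, which protects the enzyme that makes them, had -0.44, -1.01 and -1.40 in cadmium mesoderm, against 0.13, -0.15 and 0 in PBS mesoderm, and fell by 0.94 ± 0.23 (adjusted p = 0.0278). The arrays of both genes did not overlap. Both calls ended without array 3 of either group (0.67, adjusted p = 0.095 for Sat1 and -0.72, adjusted p = 0.303 for Azin1) and without cadmium array 2 (adjusted p of 0.111 and 0.137), and that of Azin1 without PBS array 1 (adjusted p = 0.0544). Lmo7, an actin-linked adhesion and nuclear envelope protein, fell by 0.87 ± 0.16 (adjusted p = 0.00143), which ended without array 3 of either group (-0.68, adjusted p = 0.0759).

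The same treatment and time in ectoderm gave wider intervals, with a residual SD of 0.223 there and 0.115 in mesoderm. Only 2 genes passed in ectoderm (0.0242%), Mcam, an adhesion molecule that rose, and Vps4a, an ATPase of membrane scission that fell there by 1.09 ± 0.19 and in mesoderm by 0.61 ± 0.10. Of the 87 genes that rose in mesoderm 80 lay above 0 in ectoderm, where 57.6% of all genes did, and of the 101 that fell 95 lay below 0. Ccng1 had 2.12, 2.62 and 0.64 in cadmium ectoderm, against -0.03, 0.03 and 0 in PBS ectoderm, a difference of 1.80 ± 0.52. Mt2 had -1.92, -1.86 and -0.73 in cadmium ectoderm, against -0.32, 0.26 and 0 in PBS ectoderm, a difference of -1.49 ± 0.41. The arrays of neither gene overlapped, and neither difference passed across all genes in ectoderm (adjusted p = 0.458 and 0.44). Cdkn1a had 1.11 ± 0.38 there, Phlda3 0.47 ± 0.38, Uqcc3 -1.29 ± 0.36 and Mt1 -0.22 ± 0.28. Tested directly, the cadmium effect differed between mesoderm and ectoderm for 0 of 8252 genes (0%; 114 at an unadjusted p under 0.05). The intervals were wide: the mesoderm effect minus the ectoderm effect was -1.37 for Mt2 (95% interval -2.32 to -0.43), 1.06 for Phlda3 (0.18 to 1.95) and 0.14 for Ccng1 (-1.05 to 1.33), each with an adjusted p of 0.9997. Whether mesoderm and ectoderm came from the same pools is not stated.

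At 3 h, 0 genes passed in cadmium mesoderm in limma (0%; 255 at an unadjusted p under 0.05). All 22 measured surface ectoderm markers lay above 0 at 3 h, with a median of 0.22, against 16 and 0.08 at 12 h. The part of this shift in the differences between times was not tested. Of the 87 genes that rose at 12 h, 27 lay above 0 at 3 h, where 50.3% of all genes did, and of the 101 that fell 42 lay below 0. The difference of the cadmium effect, 12 h minus 3 h, passed for 38 genes (0.460%), 13 with a higher and 25 with a lower effect at 12 h. Leaving out single arrays moved this count between 5, without 3 h cadmium array 1, and 95, without 12 h cadmium array 1. Mt2 had 0.46, 0.16 and 0.18 in 3 h cadmium mesoderm, against 0.12, -0.13 and 0 in 3 h PBS mesoderm. These lay just above PBS where the 12 h arrays lay far below it, and the effect differed by -3.13 ± 0.30 (adjusted p = 4.40e-07). Cdkn1a and Phlda3, at -0.28 ± 0.21 and -0.19 ± 0.21 at 3 h, differed by 1.85 ± 0.28 (adjusted p = 0.00203) and 1.73 ± 0.28 (adjusted p = 0.00323), and Nek7 by -1.16 ± 0.19 (adjusted p = 0.00323). These 4 genes were the ones that passed in all 12 fits without 1 array, and Mt2 was the one that passed without weights. Ccng1 differed by 1.99 ± 0.38 (adjusted p = 0.0202), which ended without 3 h cadmium array 1 (adjusted p = 0.104) and without array 3 of either 3 h group. Slc30a1 had 0.32, 0.18 and 0.25 in 3 h cadmium mesoderm, against -0.02, 0.02 and 0 in 3 h PBS mesoderm. It was thus above PBS in all 3 h arrays and below it in all 12 h arrays, and its effect differed by -0.47 ± 0.09 (adjusted p = 0.0228), which ended in 6 of the 12 fits (highest adjusted p = 0.119). The arrays of the 3 h and 12 h groups are separate.

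Acetazolamide, compared with oil in 12 h mesoderm, gave 0 genes past the threshold in limma (0%; 65 at an unadjusted p under 0.05). Mt2 had 0.04, 0.32 and -0.05 in acetazolamide mesoderm, against -0.44, 0.34 and 0 in oil mesoderm, and these overlapped. The cadmium effect minus the acetazolamide effect passed for Mt2 alone of 8252 genes (0.0121%), at -3.0 ± 0.36 (adjusted p = 4.21e-05), and in all 12 fits without 1 array. Ccng1, Cdkn1a and Phlda3 had 0.06 ± 0.37, 0.15 ± 0.27 and -0.05 ± 0.27 after acetazolamide. Their effects differed between agents by 1.88 ± 0.46, 1.41 ± 0.34 and 1.58 ± 0.34, which did not pass (adjusted p = 0.289, 0.281 and 0.148). Of the genes that changed after cadmium, 62 of the 87 that rose lay above 0 after acetazolamide, where 53.3% of all genes did, and 52 of the 101 that fell lay below 0. Doses and vehicles differ between the agents.

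**Figure D4:**
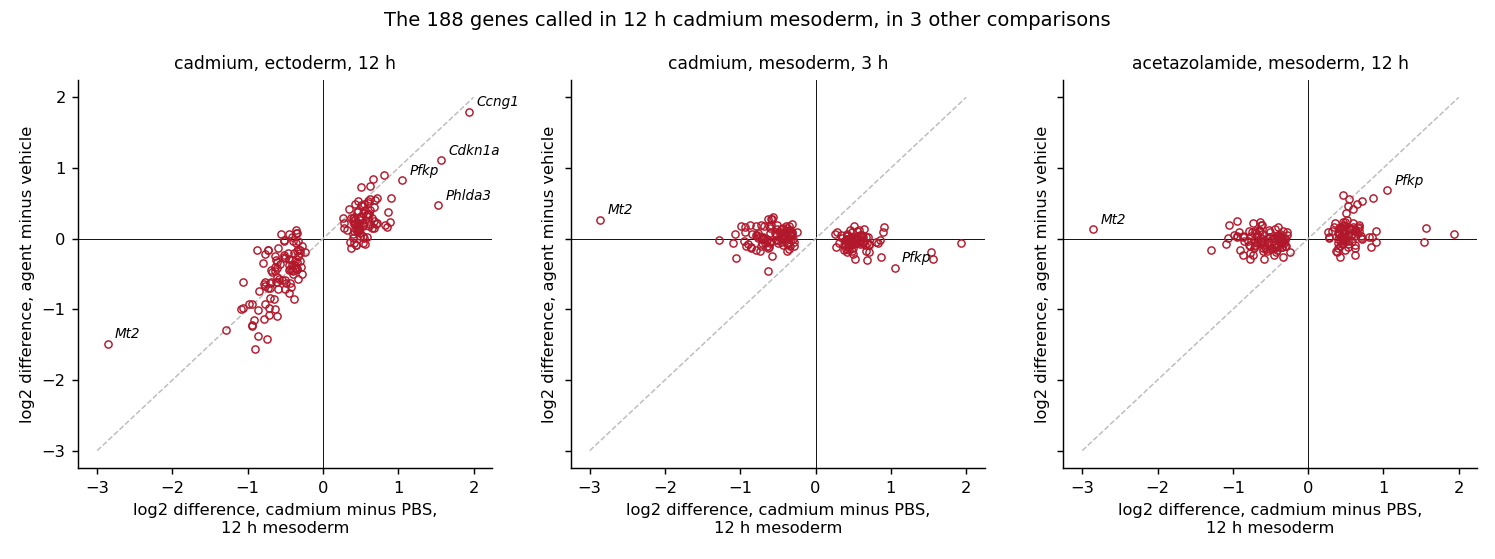
Log2 difference of cadmium minus PBS in 12 h mesoderm (horizontal axes) against the agent minus vehicle difference in 12 h cadmium ectoderm, 3 h cadmium mesoderm and 12 h acetazolamide mesoderm (vertical axes) for the 188 called genes, with a dashed line of equal values. The points of ectoderm follow the dashed line's direction, while those of 3 h and of acetazolamide lie along 0, and Mt2 is the lowest point of the horizontal axis in all 3 panels.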

How the data were processed

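Gene expression was measured on Affymetrix mouse arrays, 1 per RNA sample, in 16 groups of 3. The deposited values are linear ratios. Within each comparison the authors' vehicle arrays 1 and 2 average 1 and vehicle array 3 is 1, which was checked on the file, and that treated arrays were divided by the same denominators is an inference. Background correction, normalization and filters are not given in the sources used here. The ratios hold no level, so no filter on dim probe sets, no pseudocount and no trend of variance with intensity could be used. Log2 ratios were averaged over the probe sets naming 1 gene, through the platform annotation, of which 10839 matched a RefSeq gene by Entrez ID; 396 probe sets name several genes and 1237 name none.

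One limma model (version 3.58.1, R 4.3.3) was fitted to all 48 arrays, with 16 denominator means, 8 agent effects, 24 residual degrees of freedom and 1 precision weight per comparison. Effects and differences of effects were tested with eBayes and adjusted over 8252 genes by Benjamini-Hochberg, with a threshold of 0.05. Values after ± are standard errors of this fit. The fitting was tested on simulated data.

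The text names the 15 genes with the largest increase and the 15 with the largest decrease among called genes whose arrays did not overlap, every called gene of 42 gene lists, the genes named whatever their values, and the 5 largest differences of effects in each direction. Other genes are said to have been chosen after their values were seen. The comparison and the lists were chosen with earlier results of these data known. Promoter windows came from RefSeq (GRCm38.p6). Alternatives covered weights, blocks, samples fitted, probe set summary, centring, robust fitting and leaving out each array.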

Additional observations from a re-analysis of the deposited data

Results flagged for a closer look

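The cadmium effect in mesoderm differed between 12 h and 3 h, tested as a difference of effects in limma, for 38 genes. The largest positive differences, 12 h minus 3 h, were 1.99 for Ccng1, 1.85 for Cdkn1a, 1.73 for Phlda3, 0.87 for Gja4 and 0.84 for Tmem43, a membrane protein of the nuclear envelope. The largest negative differences were -3.13 for Mt2, -1.27 for Uqcc3, -1.16 for Nek7, -1.07 for Lmo7 and -1.04 for Mrps2. Cdkn1a, Phlda3, Mt2 and Nek7 passed in all 12 fits without 1 array. The highest adjusted p in those fits was 0.104 for Ccng1, 0.128 for Gja4, 0.143 for Tmem43, 0.162 for Uqcc3, 0.157 for Lmo7 and 0.150 for Mrps2.

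The effect of cadmium minus that of acetazolamide in 12 h mesoderm passed for 1 gene, Mt2, at -3.0.

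Of 1589 probe sets that name several genes or none, 12 passed in cadmium mesoderm at 12 h, 11 higher and 1 lower, and 160 had an unadjusted p under 0.05. These probe sets enter no gene count of the report.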

How the results depend on the processing

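The number of genes called in cadmium mesoderm at 12 h, 188, was 22 without weights, 34 without weights and without denominator means, 0 from the compared arrays alone, 110 from the cadmium arrays and their vehicles, 29 from arrays 1 and 2, and 58 to 361 when single arrays were left out. Centring arrays on their median gave 137, with 70 higher and 67 lower. The number of differences between 12 h and 3 h, 38, was 1 without weights, 62 without denominator means, 1 without both, 1 from the compared arrays alone, 5 from the cadmium arm, 1 from arrays 1 and 2, 24 after centring and 5 to 95 without single arrays. For cadmium minus acetazolamide the count of 1 was 2 without denominator means, 0 from the compared arrays alone, 2 with probe sets tested one by one, and 1 to 10 without single arrays. For mesoderm minus ectoderm it was 0, and 0 to 2 without single arrays. Of 57 named genes that passed, 0 reversed their direction, 22 passed in every fit without 1 array, and 0 passed in all 19 alternatives. That last count was fixed by 1 alternative, the fit on the compared arrays alone, which called 0 genes. Of 82 named genes that did not pass, 33 had values on both sides of 0 over the alternatives.

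With the replicate number as a block, the counts were 459 in cadmium mesoderm at 12 h, which include all 188, 76 between times and 5 between agents. With the block and no weights they were 23, 2 and 2, and with the block in the compared arrays alone 617 genes were called, both chosen after the data were seen. Arrays 1 and 2 of cadmium and PBS mesoderm at 12 h deviated together across genes (r = 0.65), other comparisons gave -0.20 to 0.55, and array 3 could not be checked, so the numbers are not known to pair samples. Alternatives of pseudocount, low-value filter, background and normalization were not run, because ratios hold no level. Causes of these shifts were not tested.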

Other observations

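Genes outside the naming rule, chosen here after their values were seen, included several of ribosome assembly and mitochondria. No list of ribosome assembly was drawn up, so members that rose or did not move were not counted. Utp20, which processes the precursor of ribosomal RNA, had log2 ratios of -0.28, -0.41 and -0.37 in cadmium mesoderm at 12 h, against 0.10, -0.11 and 0 in PBS mesoderm, a difference of -0.35 ± 0.07 (limma, adjusted p = 0.00208). Ndufaf1, an assembly factor of respiratory complex I, had -0.64 ± 0.12, with probe sets at -0.87 and -0.41. Dlat, a subunit of pyruvate dehydrogenase, had -0.33 ± 0.07, but its probe sets disagreed, with differences of -0.67 and 0.00. All 3 passed in every fit without 1 array. Pno1 and Mdn1, also of ribosome assembly, had -0.77 ± 0.18 and -0.52 ± 0.13, calls that ended when PBS array 2, cadmium array 2 or array 3 of a group was left out, with highest adjusted p of 0.0917 and 0.399.

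Among genes that rose, Gsn, the actin-severing protein gelsolin, had 0.59, 0.50 and 0.48 in cadmium mesoderm, against -0.09, 0.09 and 0 in PBS mesoderm, a difference of 0.53 ± 0.08. Tnfaip8l1 had 0.65 ± 0.10 and the autophagy gene Gabarapl1 0.62 ± 0.11. The arrays of these 3 genes did not overlap, and each passed in every fit without 1 array.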
